A study of Mus musculus with 18 samples.

Results

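NMBA (N-nitrosomethylbenzylamine) is a nitrosamine that the tissue's own enzymes turn into a DNA-alkylating agent, and rodents given it develop squamous tumors of the esophagus and forestomach. The mouse forestomach is the non-glandular part of the stomach. It is lined by a cornifying squamous epithelium of the same kind as the esophagus, in which basal keratinocytes divide, move upward and assemble a cornified envelope from small proline-rich, late cornified envelope and S100 proteins. Below the epithelium lie collagen-rich connective tissue, smooth muscle and the enteric nerves. The comparison described here is that of NMBA with vehicle in wild-type mice, and it asks which genes and gene groups differed in the forestomach after the carcinogen.

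Of the 18 RNA sequencing libraries of the series, 9 belong to this comparison: 6 wild-type mice under NMBA and 3 wild-type controls, chosen by their labelled genotype and treatment. All were male C57BL/6 mice. The carcinogen was gavaged at 0.25 mg per kg of body weight, 2 times per week over 5 weeks, the controls received 1% carboxymethyl cellulose, and forestomachs were taken at the end of week 25. The study describes the sequenced tissue as tumors and the labels give the cell type as esophageal cancer for the controls too, so how much tumor an NMBA library held is not known, and bulk RNA cannot tell fewer cells of a type from less RNA per cell. The remaining 9 libraries came from mice lacking Ccr2, a chemokine receptor of monocytes, and give a separate set of NMBA and control animals. They also enter the filter and the estimate of the spread behind every wild-type test. The p values measure the spread between these libraries, and nothing in the labels states how the animals were housed or processed together.

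The deposited values are FPKM (fragments scaled by gene length and by the mapped fragments of the library), and 14765 reference genes with at least 0.5 FPKM in 3 of the 18 libraries were kept of 28934. Depth is unknown. From the spacing of the lowest values it differed little, between 0.993 and 1.206 relative to wild-type control 1, and Pearson's r between wild-type libraries across genes was 0.924 to 0.985 over 36 pairs. Squamous markers were high in all 9 libraries, with Krt13 at 5198 to 6365 FPKM and Sprr3 at 2677 to 3772 FPKM. Ccr2 was at 2.37, 1.83 and 2.34 FPKM in the controls and between 1.3 and 3.43 FPKM (median 2.31) under NMBA, and the 2 groups overlapped. Tissue of the neighboring glandular stomach was present to an unequal extent. A list of glandular genes, led by pepsinogen C (Pgc), held 1.30, 1.84 and 12.99% of all FPKM in controls 1 to 3, 2.16 to 3.11% in NMBA libraries 1 to 3 and 6.02 to 9.98% in NMBA libraries 4 to 6. The NMBA libraries carry 2 code letters, which separate numbers 1 to 3 from numbers 4 to 6, so the code letter and the glandular share cannot be told apart within the NMBA group. The controls carry a different letter, so code letter and treatment cannot be told apart either, and the same holds in CCR2-/- mice. What the letters stand for is not stated.

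Over all genes kept, NMBA was tested against control by limma on log2(FPKM + 1) with the 4 groups of the series in 1 model, two-sided, and p values were adjusted over the 14765 genes by the method of Benjamini and Hochberg. At an adjusted p under 0.05, 13 genes rose (0.088% of the genes tested) and 0 fell (0.0%). At an unadjusted p under 0.05, 805 were higher (5.45%) and 1135 lower (7.69%). A fuller picture comes from the genes whose groups did not overlap, meaning that all 6 NMBA libraries lay on the same side of all 3 controls. There were 399 such genes on the higher side (2.7% of genes kept) and 555 on the lower side (3.76%). The higher genes had the longer tail. Log2 fold changes above 1 were seen in 106 genes and above 2 in 17, against 21 genes below -1 and 1 below -2, while 7122 of all genes (48.2%) had a log2 fold change above 0 and the median was -0.0088. Among the non-overlapping genes the median log2 fold change was 0.43 on the higher side, with 63 genes above 1, and -0.47 on the lower side, with 10 genes below -1. With wild-type libraries alone in the fit 8 genes were called higher and 1 lower, and 3 of the 13 were among them. The number of calls also rested on single libraries. Without wild-type control 1 or control 3 only 1 gene was called higher, without control 2 it was 3, without NMBA 1, 2, 3 or 6 it was 4 or 5, and without NMBA 5 it was 30. The counts without overlap can only stay the same or rise when a library is left out. They were 1113 higher and 1542 lower without control 2, 859 and 1072 without control 3, and 677 higher without control 1. Without NMBA 5 the higher count was 651, and without NMBA 4 the lower count was 899.

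**Figure D1:**
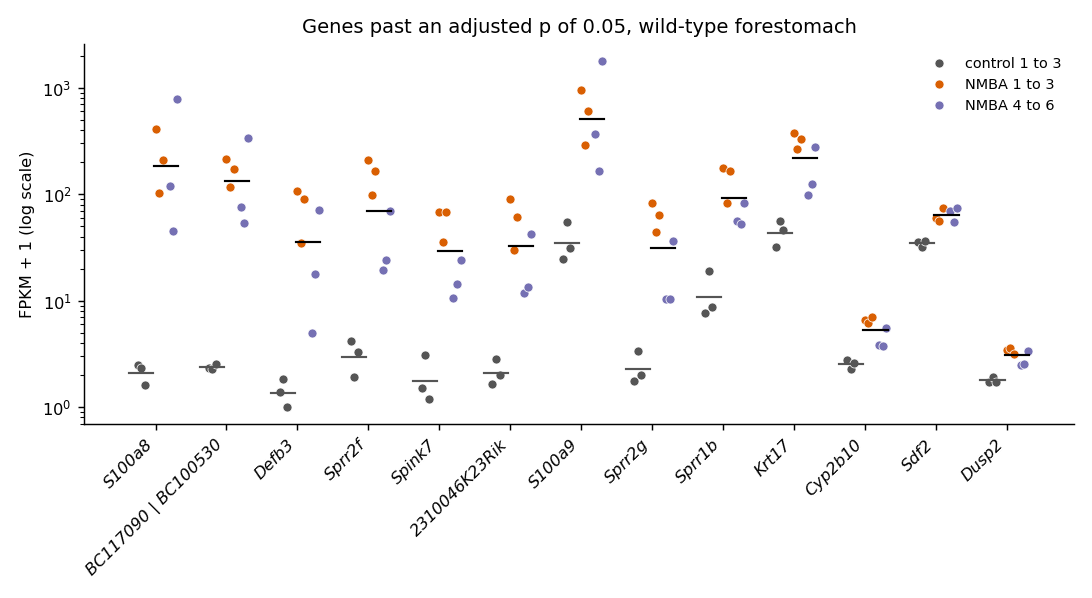
Values in FPKM + 1 (log axis) of the 13 genes past an adjusted p of 0.05, with 1 point per wild-type library. Grey points are the 3 controls, orange points NMBA libraries 1 to 3, purple points NMBA libraries 4 to 6, and lines are the means on the log2 scale. Each NMBA point stands above each control point of the same gene (S100a8 has 1.47 FPKM at most in controls and 44.4 FPKM at least under NMBA).

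Of the 13 genes, 6 lie within the epidermal differentiation complex, the cluster on chromosome 3 that holds the S100, small proline-rich and late cornified envelope genes. Between S100a1 and S100a10 (chr3:90511034-93564643 of GRCm38) lay 45 of the 14765 genes kept, with a median log2 fold change of 0.14. Of these 45, 14 were higher without overlap (2.7% of all genes) and 0 were lower (3.76% of all genes). The 6 genes that rose sat in 3 places. These were the pair S100a8 and S100a9, the run of Sprr genes (Sprr2f, Sprr2g and Sprr1b), and 2310046K23Rik, an uncharacterized gene between Sprr4 and the kept late cornified envelope gene Lce1a1. The late cornified envelope genes, which encode proteins of the outermost layers, were not among them. Of 11 kept entries 2 had a log2 fold change above 0, their median was -0.14, and 0 were non-overlapping in either direction.

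**Figure D2:**
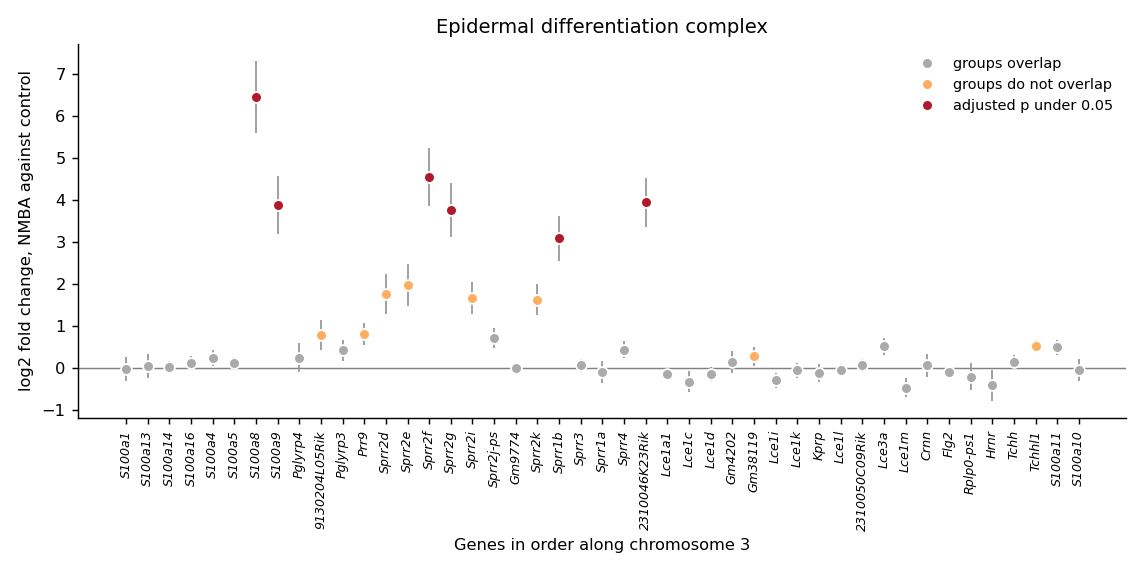
Log2 fold change (NMBA against control, wild type) of the 45 kept genes of the epidermal differentiation complex in their order along chromosome 3, with bars of 1 standard error. Red points passed an adjusted p of 0.05, orange points have groups that do not overlap. S100a8 reaches 6.45 and Sprr2f 4.54, while the late cornified envelope genes lie between -0.47 and 0.51.

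S100a8 and S100a9 encode the subunits of calprotectin, a metal-binding antimicrobial protein of neutrophils and of stressed keratinocytes. S100a8 (ENSMUSG00000056054, chr3:90668978-90670035) was at 1.47, 1.35 and 0.607 FPKM in the controls and between 44.4 and 787 FPKM (median 165) under NMBA. The lowest NMBA library was thus far above the highest control. The log2 fold change was 6.45 (standard error 0.85, limma adjusted p = 0.00524). S100a9 had 23.4, 53.8 and 30.1 FPKM in the controls and between 163 and 1772 FPKM (median 486) under NMBA, again without overlap, and rose by a log2 fold change of 3.88 (limma adjusted p = 0.0465). For both genes NMBA 6 was the highest library and NMBA 5 the lowest. Of 5 other neutrophil markers 4 were under 1 FPKM in all 9 libraries. Ly6g was at 0.283 FPKM or less, Ngp at 0.133 or less and Camp at 0.144 or less. Csf3r was at 0.0926 to 0.309 FPKM in the controls and 0.236 to 0.89 FPKM under NMBA, highest in NMBA 6. The summed FPKM of the 5 markers was 3.53 to 4.31 in the controls and 4.66 to 8.05 under NMBA, nearly all of it Cxcr2. Of the 11 kept neutrophil genes other than calprotectin 9 had a positive log2 fold change (median 0.29), and 1 was higher without overlap (2.7% of all genes). It was the chemokine receptor gene Cxcr2 (4.21, 2.97 and 3.23 FPKM against between 4.42 and 7.07 FPKM (median 5.6)). The median of these 11 genes relative to the control mean was also highest in NMBA 6 (0.62) and lowest in NMBA 5 (0.0047). Cxcr2 itself was highest in NMBA 1. The part of neutrophils in the calprotectin values was not tested.

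Small proline-rich proteins are cross-linked into the cornified envelope, and members of the Sprr2 group and Sprr1b are known for induction in injured or stressed epithelium. Of 12 kept entries 11 had a log2 fold change above 0, 8 were higher without overlap (2.7% of all genes) and 3 were called, with a median of 1.65. Sprr2f, at 3.2, 0.914 and 2.3 FPKM in the controls, was between 18.5 and 209 FPKM (median 83) under NMBA (log2 fold change 4.54, standard error 0.68, limma adjusted p = 0.0132). Libraries 1 to 3 of the NMBA group stood at 97.3 to 209 FPKM and libraries 4 to 6 at 18.5 to 68.8 FPKM, all above the controls. Sprr2g followed the same order, with 0.754, 2.38 and 1.01 FPKM in the controls and between 9.4 and 80.8 FPKM (median 39.4) under NMBA (log2 fold change 3.77, limma adjusted p = 0.0432). Sprr1b began higher, at 6.58, 18.1 and 7.81 FPKM, and reached between 52 and 176 FPKM (median 82.3) (log2 fold change 3.09, limma adjusted p = 0.0452). Sprr2d, Sprr2e, Sprr2i and Sprr2k had log2 fold changes of 1.75, 1.98, 1.66 and 1.63, without overlap and without passing the adjusted threshold. The most abundant members did not follow them. Sprr3 was at 3665, 3385 and 2677 FPKM in the controls and between 3027 and 3772 FPKM (median 3324) under NMBA, and Sprr1a at 974, 773 and 619 FPKM and between 580.5 and 893 FPKM (median 741), with log2 fold changes of 0.068 and -0.10 and overlapping groups. The Sprr2 genes are close copies and the counting of reads shared between them is not stated, so their single values are uncertain.

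Since these neighboring genes were higher together, the 250 bases before their annotated starts are shown for the Sprr2 genes with an entry in the RefSeq promoter table of GRCm38.p6, for Sprr1b, and for Sprr3, whose groups overlapped. Capitals mark matches on either strand to an AP-1 motif, TGANTCA, which reads the same on both strands, and to a TATA motif, TATAAA. All are written 5′ to 3′ in the direction of transcription.
Sprr2d (chr3:92338890-92339139, plus strand): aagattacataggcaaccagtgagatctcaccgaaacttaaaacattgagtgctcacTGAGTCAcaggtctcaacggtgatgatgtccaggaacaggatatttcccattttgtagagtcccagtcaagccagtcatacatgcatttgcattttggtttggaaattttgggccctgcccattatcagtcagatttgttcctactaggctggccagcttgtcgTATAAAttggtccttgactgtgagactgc
Sprr2e (chr3:92351893-92352142, plus strand): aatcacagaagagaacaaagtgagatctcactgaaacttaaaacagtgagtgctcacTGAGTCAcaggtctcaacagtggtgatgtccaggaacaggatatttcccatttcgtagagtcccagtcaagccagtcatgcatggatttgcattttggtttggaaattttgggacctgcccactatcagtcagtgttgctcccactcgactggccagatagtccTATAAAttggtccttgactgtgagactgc
Sprr2f (chr3:92364937-92365186, plus strand): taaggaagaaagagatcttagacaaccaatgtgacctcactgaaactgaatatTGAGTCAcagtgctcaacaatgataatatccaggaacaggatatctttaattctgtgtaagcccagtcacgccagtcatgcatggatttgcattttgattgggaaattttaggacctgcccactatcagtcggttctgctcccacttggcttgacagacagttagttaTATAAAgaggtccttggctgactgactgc
Sprr2i (chr3:92407741-92407990, plus strand): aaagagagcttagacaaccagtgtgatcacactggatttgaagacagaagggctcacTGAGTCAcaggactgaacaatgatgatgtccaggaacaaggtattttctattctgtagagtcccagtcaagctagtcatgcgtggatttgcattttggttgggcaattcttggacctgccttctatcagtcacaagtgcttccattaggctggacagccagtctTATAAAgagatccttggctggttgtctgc
Sprr2k (chr3:92432332-92432581, plus strand): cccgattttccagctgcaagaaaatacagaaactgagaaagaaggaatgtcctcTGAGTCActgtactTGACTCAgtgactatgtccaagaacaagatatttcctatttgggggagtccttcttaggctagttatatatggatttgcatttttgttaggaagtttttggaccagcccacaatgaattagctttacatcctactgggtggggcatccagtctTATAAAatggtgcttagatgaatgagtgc
Sprr1b (chr3:92438780-92439029, minus strand): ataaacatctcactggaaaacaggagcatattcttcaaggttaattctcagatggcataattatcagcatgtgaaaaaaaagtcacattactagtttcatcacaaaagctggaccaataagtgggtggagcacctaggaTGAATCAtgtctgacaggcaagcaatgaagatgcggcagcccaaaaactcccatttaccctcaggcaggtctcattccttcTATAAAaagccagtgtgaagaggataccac
Sprr3 (chr3:92458721-92458970, minus strand): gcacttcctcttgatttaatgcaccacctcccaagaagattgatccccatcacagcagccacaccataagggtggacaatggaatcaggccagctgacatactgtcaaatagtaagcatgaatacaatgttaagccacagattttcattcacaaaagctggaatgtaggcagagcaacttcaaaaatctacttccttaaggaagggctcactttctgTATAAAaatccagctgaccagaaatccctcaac

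All 5 Sprr2 sequences held the AP-1 letters, first at 193 to 197 bases before the start, and all 5 held the TATA letters at 29 bases before it. Sprr1b had them at 111 and 30 bases before its start. Sprr3 had the TATA letters at 33 bases before its start and 0 AP-1 matches, while Sprr1a, not printed, had 2 AP-1 matches and a log2 fold change of -0.10. The AP-1 motif was found in 6.75% and the TATA motif in 12.4% of all 32851 promoters over the same window. The Sprr2 sequences are related by descent, with 88.0% identical positions between Sprr2d and Sprr2e and 27.6% between Sprr2f and Sprr2k when aligned at the start without gaps. Over the called genes, 8 symbols of 14 had a promoter in the table outside chromosome 18, and 2 of these 8 held the AP-1 letters.

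Protease inhibitors and proteases formed the next group. Stefins are inhibitors of cysteine proteases, and the mouse carries a cluster of stefin A genes on chromosome 16. The joined entry of BC117090 and BC100530, 2 members of this cluster, was at 1.31, 1.28 and 1.53 FPKM in the controls and between 52.2 and 333 FPKM (median 144) under NMBA. Its log2 fold change of 5.82 (standard error 0.70) had the smallest adjusted p of the comparison, 0.00294 in limma. NMBA 6 was its highest library and NMBA 5 its lowest, as for S100a8. The stefin gene Stfa2l1 was also in the list of neutrophil genes, and which cells held the RNA of this cluster was not tested. Stfa3, with 2.58, 3.7 and 1.87 FPKM in the controls and between 8.8 and 50.3 FPKM (median 25) under NMBA, had a log2 fold change of 2.68, and Stfa1 and Stfa2 one of 2.38 and 2.23. These 3 did not overlap but did not pass either (limma adjusted p = 0.104, 0.234 and 0.17). Reads of such copies may be shared, as for the Sprr2 genes. Spink7, a Kazal-type inhibitor of serine proteases made by esophageal epithelium, rose from 0.524, 2.07 and 0.181 FPKM in the controls to between 9.51 and 67.7 FPKM (median 29) under NMBA (log2 fold change 4.04, standard error 0.73, limma adjusted p = 0.0465). Its neighbor in the family Spink12 was at 16.2, 32.1 and 16.8 FPKM and between 49 and 136 FPKM (median 78.9), a log2 fold change of 1.90 that came close to the threshold (limma adjusted p = 0.0541).

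Kallikreins and transmembrane serine proteases, which cleave the junctions that hold cornified cells together, went the same way as these inhibitors. In the list of Spink inhibitors, kallikreins and related proteases 19 of 22 kept members had a positive log2 fold change, 11 did not overlap on the higher side (2.7% of all genes) and 0 on the lower, and the median was 0.44. Klk12 was at 7.8, 14.3 and 8.84 FPKM in the controls and between 14.5 and 31 FPKM (median 25.9) under NMBA, and Prss22 at 0.871, 0.956 and 0.723 and between 1.29 and 5.47 FPKM (median 3.24). Neither passed the adjusted threshold. Of 16 kept serpin B genes, inhibitors inside the cell, 7 were non-overlapping on the higher side (2.7% of all genes). Serpinb3a, a mouse counterpart of human squamous cell carcinoma antigen, was at 162, 124 and 115 FPKM in the controls and between 207 and 573 FPKM (median 398) under NMBA (log2 fold change 1.48, limma adjusted p = 0.186). Its neighbor Serpinb3c had 81.1, 48.5 and 43.6 FPKM against between 84.6 and 171 FPKM (median 115). The remaining serpin B members varied in sign, and 1 of them, Serpinb1c, was lower at an unadjusted p under 0.05 (-0.33 on the log2 scale).

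Beta-defensins and other secreted antimicrobial proteins mostly had positive values, with 14 of 15 kept members above 0 and a median log2 fold change of 0.54. Defb3, an inducible beta-defensin of epithelia, was at 0.394, 0.843 and 0 FPKM in the controls and between 4.01 and 106 FPKM (median 52.1) under NMBA. Its NMBA values spread widely, from 4.01 FPKM in library 4 to 106 FPKM in library 1, and all were above the controls (log2 fold change 4.71, standard error 0.87, limma adjusted p = 0.0468). Defb4 had 8.52, 16.1 and 12.3 FPKM in the controls and between 34.4 and 126 FPKM (median 68.8) under NMBA, a log2 fold change of 2.36 (limma adjusted p = 0.0535). Wfdc12, which encodes a small inhibitor of the whey acidic protein family, was at 11.3, 24.2 and 12.7 FPKM and between 24.9 and 67.7 FPKM (median 47.1). The interleukin 1 family, alarm cytokines of keratinocytes and their receptors, had 10 of 11 members above 0 and 4 that were higher without overlap (2.7% of all genes). Il1b was at 0.326, 0.146 and 0.576 FPKM in the controls and between 0.739 and 9.49 FPKM (median 1.47) under NMBA. Its antagonist Il1rn was higher too, at 5.91, 4.26 and 4.4 FPKM and between 6.24 and 16.5 FPKM (median 9.64), as was Il33, at 44.8, 34.6 and 42.7 and between 46 and 81.8 FPKM (median 57.3). Their log2 fold changes of 1.22, 0.85 and 0.54 did not pass (limma adjusted p = 0.371, 0.24 and 0.263).

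Keratins are the intermediate filaments of epithelial cells, and 1 of those named here passed the adjusted threshold. Krt17, a keratin of activated and healing epithelium, was at 30.9, 55 and 45.2 FPKM in the controls and between 97.2 and 377 FPKM (median 273) under NMBA, and rose by a log2 fold change of 2.34 (standard error 0.36, limma adjusted p = 0.016). Krt16, another keratin of stressed epithelium, went from 298, 403 and 314 FPKM to between 421 and 987 FPKM (median 746) (log2 fold change 1.02, limma adjusted p = 0.17). Krt5, the keratin of the basal layer, had 228, 237 and 240.2 FPKM in the controls and between 326 and 781 FPKM (median 471) under NMBA (log2 fold change 0.99, limma adjusted p = 0.157). All 3 were without overlap. The main keratin of the suprabasal layers of the esophagus and forestomach, Krt4, had 5335, 5252 and 5342 FPKM in the controls and between 2009 and 4069 FPKM (median 2812) under NMBA (log2 fold change -0.84, limma adjusted p = 0.242). The controls lay close together and each NMBA library was below them. Krt79 was lower in the same manner, at 18.1, 26.4 and 20.0 FPKM and between 5.02 and 14.5 FPKM (median 12.2). Krt13, the partner of Krt4, had overlapping groups, at 5835, 6365 and 5599 FPKM in the controls and between 5198 and 6345 FPKM (median 5845) under NMBA (log2 fold change -0.03). Of 9 kept suprabasal keratins 4 were above 0 and 2 lower without overlap (3.76% of all genes), with a median of -0.03. The wider basal list of 15 genes had a median of 0.059, with the integrin gene Itgb1 at -0.38 and the tumor protein p63 gene Trp63 at 0.086. Squamous transcription factors as a list stayed near the median of all genes (0.09, 0 of 12 at an unadjusted p under 0.05).

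Ligands of the EGF receptor, which drive keratinocyte growth and repair, held the members of this family without overlap. Epigen (Epgn) was at 0.855, 1.09 and 0.894 FPKM in the controls and between 2.42 and 9.73 FPKM (median 4.06) under NMBA (log2 fold change 1.48, limma adjusted p = 0.0605). Amphiregulin (Areg) had 0.945, 1.06 and 1.44 FPKM against between 2.22 and 4.99 FPKM (median 2.83), and heparin-binding EGF (Hbegf) 7.56, 8.91 and 7.39 against between 8.94 and 18.6 FPKM (median 13.2), with log2 fold changes of 0.93 and 0.65. Erbb2 and Erbb3, receptors of the family, had 0.10 and 0.025, and the Egfr gene shares a joined entry and is not analysed here. Gap junction proteins Gjb2 and Gjb6, which connect activated keratinocytes, were higher without overlap (139, 115 and 115 FPKM against between 159 and 311 FPKM (median 227) for Gjb2, and a log2 fold change of 0.50 for Gjb6). Among early response genes the phosphatase gene Dusp2, a negative regulator of MAP kinases, rose from 0.732, 0.91 and 0.717 FPKM to between 1.46 and 2.61 FPKM (median 2.26) (log2 fold change 0.78, standard error 0.14, limma adjusted p = 0.0465). Atf3, a stress-induced transcription factor gene, was at 0.842, 1.02 and 1.16 FPKM and between 1.69 and 2.75 FPKM (median 2.26) without passing, and Dusp10 was non-overlapping on the lower side (-0.39). The subunits of AP-1 differed in sign, with log2 fold changes of 0.41 for Fos, 0.21 for Fosl1, -0.20 for Jun, -0.056 for Junb and -0.46 for Jund.

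Genes of DNA replication were higher by small amounts. Of 31 kept, 29 had a positive log2 fold change, 12 were higher at an unadjusted p under 0.05 (5.45% of all genes were), 4 were higher without overlap (2.7% of all genes), and the median was 0.24. By library the median was 0.033 in NMBA 5, below control 2 at 0.047, and 0.20 to 0.39 in the other NMBA libraries. Mcm5, a subunit of the replicative helicase, was at 4.56, 5.16 and 5.82 FPKM in the controls and between 6.06 and 11.7 FPKM (median 8.32) under NMBA (log2 fold change 0.59, limma adjusted p = 0.147). Mcm10 and Cdc45, which activate that helicase, had log2 fold changes of 0.30 and 0.29. Genes of mitosis were above 0 in 28 of 29 but only 2 reached an unadjusted p under 0.05, and their median of 0.23 was not shared by both code letters. It was 0.42 in NMBA libraries 1 to 3 and -0.0024 in libraries 4 to 6. Targets of p53, the transcription factor that responds to DNA damage, showed no common direction. Of 28 kept, 15 were above 0, and the median was 0.011, with Cdkn1a at -0.0099, Mdm2 at 0.0074 and Gadd45g, the non-overlapping member, at -0.51. Repair genes for alkylated DNA had a median of -0.043, and Mgmt, which removes methyl groups from guanine, was at 6.04, 9.16 and 7 FPKM in the controls and between 5.45 and 9.88 FPKM (median 6.08) under NMBA, with overlapping groups.

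**Figure D3:**
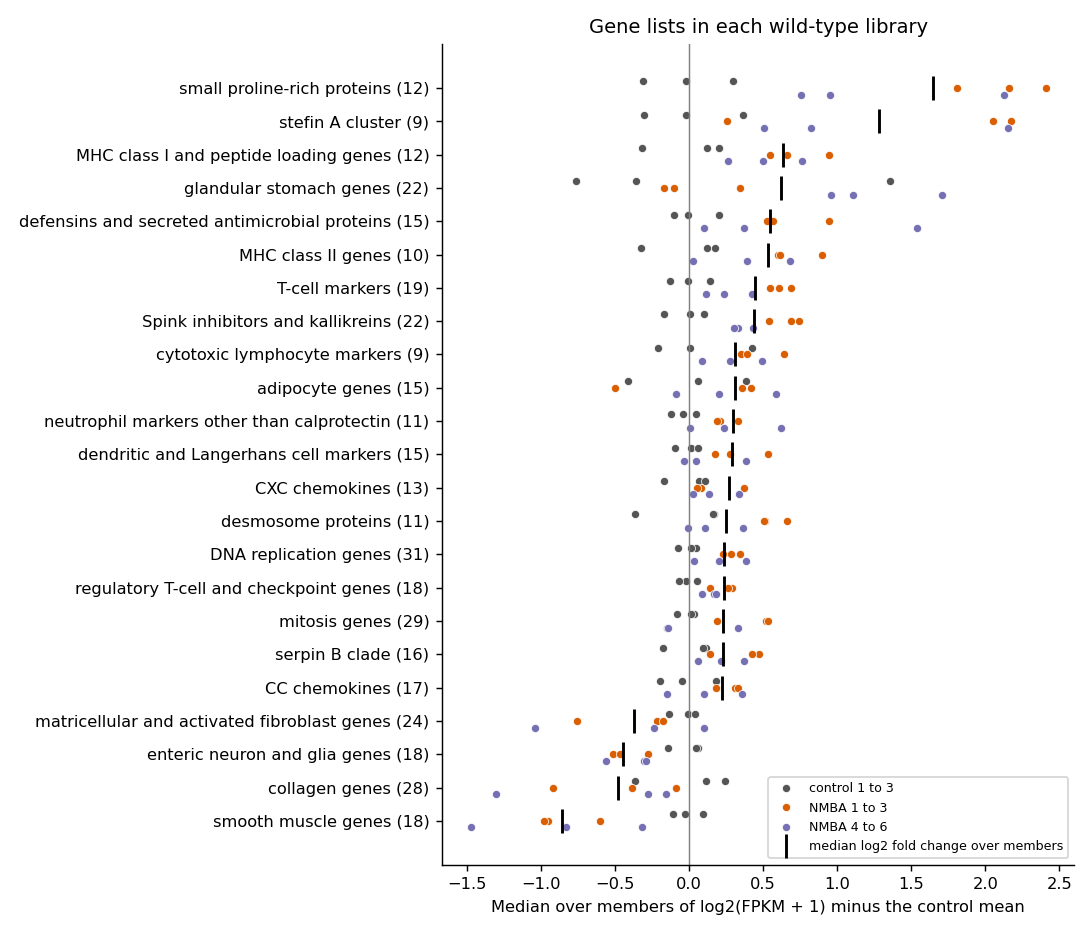
Median over the members of a list of log2(FPKM + 1) minus the control mean, for each wild-type library (points) of the 23 lists with at least 5 kept genes and a median log2 fold change of 0.2 or more in size. The black bar is the median log2 fold change over the members, and the number of members is in parentheses. Small proline-rich genes reach 0.76 to 2.41 in the NMBA libraries, smooth muscle genes lie between -1.48 and -0.32, and the glandular stomach list separates NMBA libraries 4 to 6 and control 3 from the others.

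Genes of antigen presentation were higher with NMBA in wild type. All 12 kept genes of MHC class I and peptide loading had a positive log2 fold change, with a median of 0.63 against -0.0088 over all genes, and 4 were higher without overlap (2.7% of all genes). B2m, the common light chain of class I molecules, was at 269, 370.2 and 391 FPKM in the controls and between 456 and 741 FPKM (median 666) under NMBA (log2 fold change 0.84, standard error 0.19, limma adjusted p = 0.129). The heavy chain genes H2-K1 and H2-D1 had 64, 87.5 and 111 FPKM against between 127 and 192 FPKM (median 161) and 133, 175 and 190.1 FPKM against between 226 and 289 FPKM (median 254). Nlrc5, the transactivator of class I genes, was at 2.58, 1.73 and 2.75 FPKM and between 2.99 and 7.49 FPKM (median 4.92). None of these 4 passed the adjusted threshold, and genes of class I are close copies, so that reads may be shared. Class II genes of professional antigen-presenting cells were above 0 in 10 of 10, with a median of 0.53 and 8 higher at an unadjusted p under 0.05 (5.45% of all genes), yet 0 were without overlap. Cd74, the invariant chain, had 135, 239.5 and 199.6 FPKM in the controls and between 204 and 419 FPKM (median 311) under NMBA, where NMBA 5 lay among the controls. Genes stimulated by interferon had 24 of 29 members above 0 (median 0.17) but 0 at an unadjusted p under 0.05. Their medians by library spread from -0.31 to 0.49 in the controls and from -0.096 to 0.65 under NMBA.

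T-cell markers were low and higher under NMBA. Of 19 kept, 18 had a positive log2 fold change, 12 were higher at an unadjusted p under 0.05 (5.45% of all genes were) and 7 without overlap (2.7% of all genes), with a median of 0.44. Trbc2, a constant region of the T-cell receptor, was at 0.497, 1.69 and 0.999 FPKM in the controls and between 2.07 and 12.9 FPKM (median 4.32) under NMBA (log2 fold change 1.57, limma adjusted p = 0.117). Cd3e, a chain of the receptor complex, was at 0.32, 0.517 and 0.326 FPKM against between 1.1 and 2.27 FPKM (median 1.21), and Icos, a costimulator of activated T cells, at 0.126, 0.101 and 0.177 against between 0.245 and 1.23 FPKM (median 0.662). Values near or under 1 FPKM make the log2 fold change of 0.84 for Cd3e and 0.56 for Icos understate the ratio. The markers Cd8a and Cd8b1 of cytotoxic T cells had 0.18 and 0.20, and Cd4 0.48. In a separate list of cytotoxic lymphocyte genes 9 of 9 kept were above 0 (median 0.31). Of these, 2 were higher at an unadjusted p under 0.05 and 0 were without overlap. Among checkpoint and regulatory genes 15 of 18 were above 0 (median 0.23), and 2 were higher without overlap (2.7% of all genes), Havcr2 and Tnfrsf18. Havcr2 was at 0.288, 0.162 and 0.395 FPKM in the controls and between 0.409 and 1.46 FPKM (median 0.822) under NMBA. Pdcd1, which encodes the inhibitory receptor PD-1 whose pathway the study examined, was at 0.126, 0.0721 and 0.218 FPKM and between 0.218 and 1.2 FPKM (median 0.924), where NMBA 5 lay level with control 3, with a log2 fold change of 0.69 (limma adjusted p = 0.214). Of the genes for attractants of T cells, Cxcl9 and Cxcl16 were non-overlapping on the higher side, at 0.179, 0.484 and 0.636 FPKM against between 0.821 and 2.52 FPKM (median 1.63) for Cxcl9.

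Dendritic and Langerhans cells carry antigen from the epithelium to lymph nodes, and 4 of their 15 kept markers were higher without overlap, as were 2.7% of all genes. Ccl22, a chemokine of activated dendritic cells, was at 0.605, 0.958 and 1.04 FPKM in the controls and between 1.33 and 4.11 FPKM (median 2.98) under NMBA. Langerin (Cd207) had 0.604, 0.488 and 0.338 FPKM against between 0.893 and 3.03 FPKM (median 1.77), and the homing receptor Ccr7 0.15, 0.422 and 0.307 against between 0.662 and 2.17 FPKM (median 1.36). Fscn1, the actin bundler of mature dendritic cells that other cells make as well, was at 8.28, 3.74 and 5.5 and between 9.7 and 14.6 FPKM (median 11.4). Their log2 fold changes lay between 0.85 and 0.96, and none passed (limma adjusted p from 0.129 to 0.204). Macrophage markers showed no common shift. Of 19, 11 were above 0, the median was 0.058, and Csf1r and Adgre1 were at 0.031 and 0.058, while Cd68, at 11.6, 16.8 and 11.8 FPKM in the controls and between 15.5 and 20.4 FPKM (median 18.1) under NMBA, reached 0.41. Genes of alternative activation were split. Chil4, a chitinase-like protein of mouse type 2 responses, had one of the largest increases outside the called genes, from 8.52, 21.8 and 69.5 FPKM to between 69.5 and 1195 FPKM (median 466) (log2 fold change 3.86, standard error 0.91, limma adjusted p = 0.136). The lowest NMBA library only just exceeded control 3. Arg1, arginase of macrophages and keratinocytes, was at 32.7, 35.5 and 32.6 FPKM and between 59.9 and 176 FPKM (median 101), a log2 fold change of 1.56 (limma adjusted p = 0.151). The macrophage receptor Mrc1 of the same list was at -0.24.

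On the lower side the muscle wall stood first. All 18 kept smooth muscle genes had a negative log2 fold change, 17 were lower at an unadjusted p under 0.05 (7.69% of all genes were), 11 were without overlap (3.76% of all genes), and the median of -0.86 was the lowest of the 56 lists. Myh11, the smooth muscle myosin heavy chain, was at 809, 524 and 787 FPKM in the controls and between 162 and 519 FPKM (median 373) under NMBA (log2 fold change -0.97, standard error 0.37, limma adjusted p = 0.278). NMBA 6 was the lowest library and NMBA 2 lay just below control 2. Synemin (Synm), an intermediate filament protein, had 48.6, 49.5 and 46.2 FPKM in the controls and between 17.7 and 30.3 FPKM (median 21.2) under NMBA (log2 fold change -1.12, limma adjusted p = 0.222). Hspb6, a small heat shock protein of muscle, stood at 43.6, 43.6 and 43.7 FPKM in controls and between 12.5 and 35.8 FPKM (median 21.2) under NMBA. Phospholamban (Pln), a regulator of the calcium pump, had the largest decrease among the named genes, from 11.8, 13.3 and 9.07 FPKM to between 0.809 and 8.74 FPKM (median 4.35) (log2 fold change -1.41, limma adjusted p = 0.291). Its NMBA libraries divided into 0.809 and 0.98 FPKM in libraries 3 and 4 and 3.57 to 8.74 FPKM in the others. Of all FPKM the smooth muscle list held 2.16 to 2.79% in controls and 0.787 to 1.92% under NMBA. Amounts of muscle wall in the dissected pieces, which the labels do not give, were not tested.

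**Figure D4:**
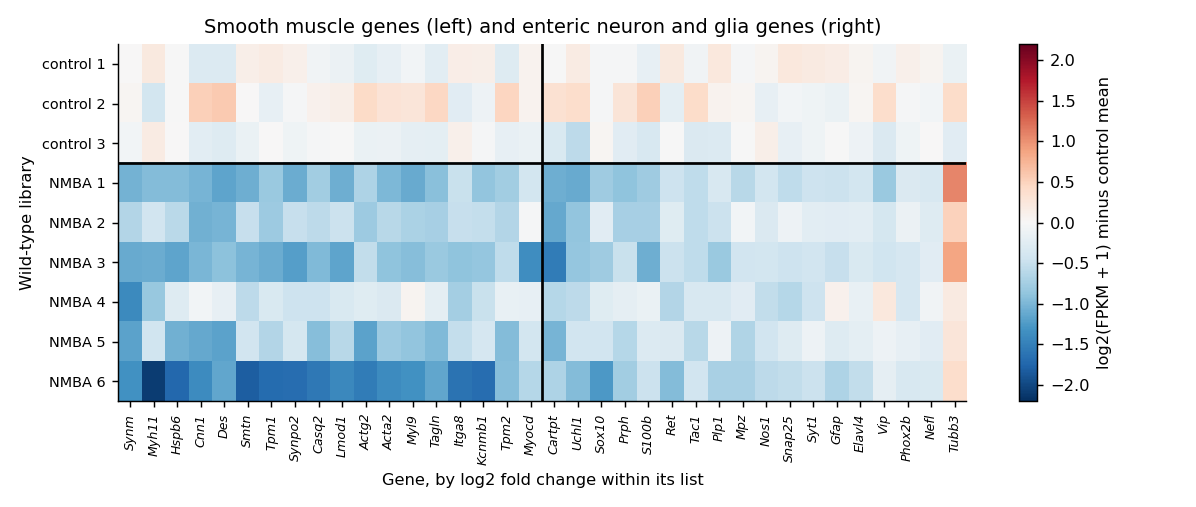
Log2(FPKM + 1) minus the control mean of 18 smooth muscle genes (left of the line) and 18 enteric neuron and glia genes (right), with 1 row per wild-type library and genes ordered by log2 fold change. Blue is lower than the control mean and red higher. Synm, at -1.12, opens the muscle list, NMBA 6 is the darkest row there, and Tubb3 is the only nerve gene with a positive log2 fold change (0.55).

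Genes of the nerves of the wall were lower too. Of 18 kept enteric neuron and glia genes, 1 had a positive log2 fold change, 16 were lower at an unadjusted p under 0.05 (7.69% of all genes were) and 10 without overlap (3.76% of all genes), with a median of -0.45. Cartpt, a neuropeptide gene, was at 12.5, 16.1 and 9.69 FPKM in the controls and between 3.62 and 7.75 FPKM (median 5.53) under NMBA (log2 fold change -1.01, limma adjusted p = 0.183). Nos1, the nitric oxide synthase of inhibitory motor neurons, had 1.23, 0.9 and 1.34 FPKM against between 0.444 and 0.724 FPKM (median 0.618), and Ret, the receptor that enteric nerves need to develop, 2.77, 1.81 and 2.22 against between 0.674 and 1.69 FPKM (median 1.35). The exception was Tubb3, a neuronal tubulin, at 9.5, 14.4 and 8.77 FPKM in controls and between 12.3 and 23.4 FPKM (median 14.9) under NMBA (0.55 on the log2 scale, with overlapping groups). The transcription factor gene Hand2, expressed in gut mesenchyme and enteric neurons, was at 21.3, 22.1 and 21.3 FPKM and between 6.87 and 14.1 FPKM (median 11.2), and gastrin-releasing peptide (Grp) at 13.2, 11.6 and 8.92 and between 3.59 and 8.4 FPKM (median 4.94). Both were without overlap (log2 fold change -0.96 and -0.96, limma adjusted p = 0.204 and 0.117).

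Connective tissue genes were mostly lower. Collagens were below 0 in 26 of 28 kept, 4 without overlap (3.76% of all genes), with a median of -0.48. The library medians of the list overlapped. Control 2, at -0.37, lay below NMBA 2, 4 and 5 at -0.090, -0.28 and -0.15. NMBA 1 was at -0.39, and the lowest were NMBA 3 and 6 at -0.92 and -1.31. Col9a2 came closest to the threshold, at 1.05, 0.892 and 1.17 FPKM in the controls and between 0.272 and 0.538 FPKM (median 0.425) under NMBA (log2 fold change -0.53, limma adjusted p = 0.0882), and Col8a2, a collagen of basement membranes, was at 8.25, 7.39 and 9.52 FPKM and between 2.12 and 5.72 FPKM (median 4.25). Both collagens with a positive value, Col7a1 (0.28) and Col17a1 (0.36), anchor the epithelium to its basement membrane. Fibril collagens Col1a1 and Col1a2 had -0.46 and -0.41 with overlapping groups. Matricellular and activated fibroblast genes had 6 of 24 members above 0 (median -0.37). Their library medians were -0.14 to 0.036 in the controls, with NMBA 4 above these at 0.10 and the other NMBA libraries below them. Thbs2 and Acta2 did not overlap (3.76% of all genes on the lower side), the last of which is also a muscle actin. Among proteases of the matrix Mmp3, stromelysin, was on the higher side (0.181, 0.284 and 0.208 FPKM against between 0.605 and 2.31 FPKM (median 1.01)) and the inhibitor Timp2 on the lower (84.5, 78 and 74.3 against between 33.9 and 64 FPKM (median 56.5)). Nkd1 and Dkk3, inhibitors of Wnt signaling, were lower without overlap, at log2 fold changes of -0.86 and -0.66.

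Other decreases lay outside the muscle and nerve lists. Fabp1, a fatty acid-binding protein, had 3.62, 3.02 and 1.35 FPKM against between 0.0894 and 1.1 FPKM (median 0.412) (log2 fold change -1.26, limma adjusted p = 0.0541). Psd and Optc, at log2 fold changes of -1.05 and -1.01, and the epithelial membrane protein gene Emp1, at 60.0, 57.4 and 54.9 FPKM in controls and between 13.6 and 52.8 FPKM (median 25) under NMBA, were also among the 12 largest non-overlapping decreases. Emp1 was uneven, at 13.6 to 15.7 FPKM in NMBA 1, 2 and 5 and 34.2 to 52.8 FPKM in the others. Cytochrome P450 enzymes, some of which activate nitrosamines, went in both directions. Cyp2b10 rose from 1.79, 1.27 and 1.59 FPKM to between 2.71 and 5.96 FPKM (median 4.85) (log2 fold change 1.06, standard error 0.19, limma adjusted p = 0.0465), whereas Cyp4b1 and Cyp2u1 were lower without overlap (-0.47 and -0.30). Cyp2e1, a nitrosamine-activating enzyme, had 0.14. Sdf2, which encodes a protein of the endoplasmic reticulum, rose evenly, at 34.8, 30.8 and 35.4 FPKM in the controls and between 54.2 and 73 FPKM (median 63.6) under NMBA (log2 fold change 0.89, standard error 0.16, limma adjusted p = 0.0465). The last called gene, 2310046K23Rik (chr3:92532505-92534511), rose from 0.639, 1.82 and 1 FPKM to between 10.8 and 88.9 FPKM (median 35.5) (log2 fold change 3.94, limma adjusted p = 0.0132). Antioxidant targets of NRF2 had 17 of 21 members above 0 (median 0.18), with 2, Srxn1 and Pgd, higher without overlap (2.7% of all genes).

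Over the 56 lists the median was above 0 in 43 and below 0 in 13. Lists near the median of all genes included Notch (-0.083), mast cells (0.0059), alcohol, aldehyde and retinoid enzymes (0.011), inflammatory monocytes (0.05) and epithelial Ly6 proteins (0.046). Oxidative phosphorylation, cholesterol synthesis, hypoxia and glycolysis had medians of 0.10, 0.10 and 0.11. Glandular stomach genes had a median of 0.62 with 0 of 22 at an unadjusted p under 0.05, made up of 0.0035 for NMBA libraries 1 to 3 and 1.27 for libraries 4 to 6. NMBA libraries 1 to 3 and 4 to 6 were set against the same controls, so their signs are not independent. Of the 56 lists 40 had the same sign in both sets, among them small proline-rich genes at 1.98 and 1.29, MHC class I at 0.73 and 0.49, smooth muscle at -0.85 and -0.85 and enteric nerves at -0.40 and -0.43. With control 3 and NMBA 4 to 6, the 4 wild-type libraries of highest glandular share, left out, these 4 medians were 1.87, 0.90, -0.90 and -0.44, and 14 genes were called higher and 5 lower, 8 of the 13 among them.

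The CCR2-/- mice give the same contrast in other animals, with no library in common. Of the 399 genes higher without overlap in wild type, 355 (89.0%) were above 0 there, and of the 555 lower genes 514 (92.6%) were below 0, against 49.3% and 50.7% of all genes. Genes without overlap in both genotypes numbered 82 on the higher side, 20.6% of the wild-type and 16.3% of the 503 CCR2-/- genes, and 44 on the lower side, 7.93% of the wild-type and 10.05% of the 438. Of all genes kept, 3.41% were higher and 2.97% lower without overlap in CCR2-/- mice. For Krt17 the log2 fold changes were 2.34 in wild type and 2.33 in CCR2-/- mice, for Sprr1b 3.09 and 3.02, and for Krt5 0.99 and 1.19. Chil4, with 3.86 and 0.52, B2m, with 0.84 and 0.013, and H2-K1, with 0.90 and -0.038, lay further apart. In mean FPKM B2m was at 343 in wild-type and 599 in CCR2-/- controls and at 618 and 593 under NMBA, and H2-K1 at 87.6 and 149 in controls and at 162 and 144 under NMBA, so the genotypes differed more in their controls than under NMBA. The median of the MHC class I list was 0.63 in wild type and 0.0084 in CCR2-/-, and that of the collagen list -0.48 and -0.074, while smooth muscle genes had -0.86 and -0.52. The difference between the genotypes passed the adjusted threshold for 0 genes in limma (673 at an unadjusted p under 0.05, smallest adjusted p 0.893), so none of these differences passed.

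**Figure D5:**
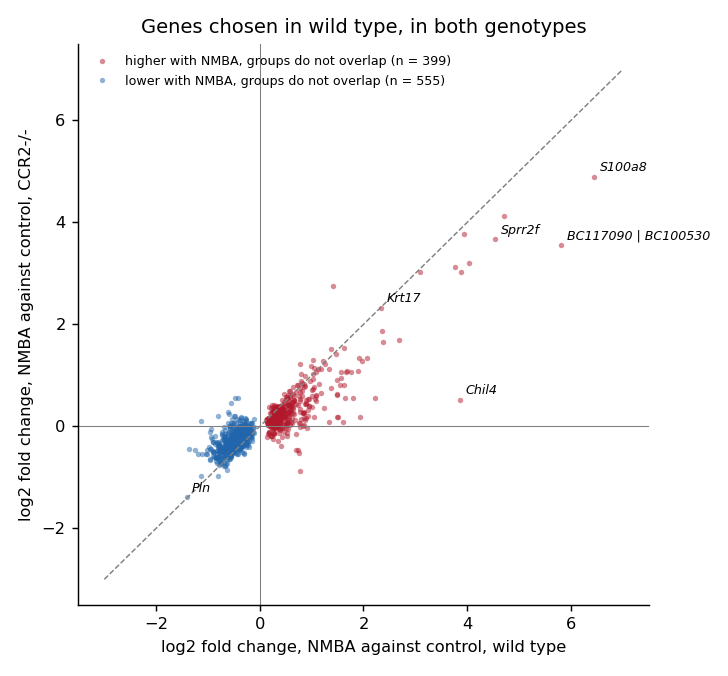
Log2 fold change of NMBA against control in wild type (horizontal axis) and in CCR2-/- mice (vertical axis) for the 399 genes higher (red) and 555 genes lower (blue) without overlap in wild type. The dashed line marks equal values. Of the red points 89.0% lie above 0 on the vertical axis and of the blue points 92.6% below it, and Chil4 stands apart at 3.86 and 0.52.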

How the data were processed

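Forestomach libraries (Illumina TruSeq RNA kit) of wild-type and CCR2-/- mice were compared by the groups of their labels. The FPKM values were made and deposited by the authors. The notes name mm10, GRCm38 and DESeq2, and the aligner and counting tool are not given in the sources used here. Of 57234 entries 28300 without a reference gene were set aside, and 14765 of 28934 passed the filter (0.5 FPKM in 3 libraries). limma 3.58.1 in R 4.3.3 fitted log2(FPKM + 1) by group, with trended variances. A log2 fold change is on that scale and understates the change of genes near 1 FPKM. The fit was tried on simulated data with normal values of equal spread in all groups. A log2 change of 1 or 2 was recovered in 77 or 97.5% of the changed genes, with 7 or 15 false calls. Genes whose spread differs between groups were not simulated, so the outcome does not speak for them.

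Gene lists (56, with 1196 symbols, of which 112 have no entry and 52 only a joined one) and members were chosen with earlier results of these data known, and no list was tested as a set. Named genes are the called ones, the 12 largest non-overlapping changes each way (unadjusted p under 0.05, mean of at least 1 FPKM), and up to 4 non-overlapping members of each list with the smallest p, or its 2 most abundant. Named genes not described stand in the counts of their list, and some items are not reported here. Others, such as the ends of a list, Fos, Mgmt, Pdcd1 and Tubb3, were picked after their values were seen. Promoters come from RefSeq (GRCm38.p6). Replicate numbers did not pair the libraries. Alternatives changed the pseudocount, filter, scaling, weights, replicate block and libraries. Figures were drawn with matplotlib 3.10.9.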

Additional observations from a re-analysis of the deposited data

Results flagged for a closer look

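Among 145 named genes, 5 had an NMBA library far from the other 5 by Dixon's criterion on log2(FPKM + 1), where chance flags about 1 in 20. Hbb-bs, a hemoglobin chain, was at 53.9 FPKM in NMBA 4 against a median of 13.3 FPKM. In the same library Lce1d was at 1138 FPKM (median 918). Krt79 was at 5.02 FPKM in NMBA 1 (median 12.2), Itga8 at 0.793 FPKM in NMBA 6 (median 2.55) and Cxcl16 at 3.07 FPKM in NMBA 5 (median 4.12).

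Outside the annotated genes, 5465 entries without a reference gene passed the filter. When all 20230 entries were tested together, 1 of them, MSTRG.13298, was called higher (log2 fold change 0.73, limma adjusted p = 0.0454). It was at 2.34, 2.15 and 1.997 FPKM in the wild-type controls and between 3.39 and 5.21 FPKM under NMBA (median 4.27). In CCR2-/- mice it was at 2.18 to 2.43 FPKM in controls and 3.12 to 5.00 FPKM under NMBA, so neither genotype overlapped. Its position and sequence are not analysed here.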

How the results depend on the processing

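The 13 higher genes had a log2 fold change above 0 under every alternative tried, 33 for each gene. As their groups did not overlap, leaving out libraries or changing the pseudocount, filter or weights could not give another sign. The number of calls moved. It was 139 higher and 19 lower with NMBA replicates 1 to 3 alone, 3 and 0 with replicates 4 to 6 alone, 28 and 3 with array weights, 26 and 0 with a pseudocount of 0.1, 8 and 1 with wild-type libraries alone (3 of the 13 among them), 6 and 0 over all entries, and 5 and 4 without a filter. The count was 14 and 5 without the 4 libraries of highest glandular share, an alternative chosen after seeing the data. Leaving out each library gave 1 to 30 higher (fewest without wild-type control 1 or 3, most without NMBA 5) and 0 to 3 lower. Non-overlapping genes numbered 418 to 1113 on the higher side and 578 to 1542 on the lower when 1 library was left out, most without control 2. Leaving out a library can only keep or raise these counts. With a replicate block the calls were 208 and 70, though same-numbered controls and NMBA libraries correlated at 0.374, -0.404 and -0.351, so the numbers do not pair them. The difference between genotypes had 0 calls, or 1 without CCR2-/- control 1. With 3 controls and unknown depth, single low genes are the least secure.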

Other observations

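Several gene families outside the lists, picked after their values were seen, shared a direction. Of 64 kept immunoglobulin kappa variable genes 57 had a log2 fold change above 0 (median 0.62), 11 were higher at an unadjusted p under 0.05 and 7 did not overlap (5.45% and 2.7% of all genes), and of 79 heavy-chain variable genes 71 were above 0 (median 0.43) with 7 non-overlapping. 0 of either passed the adjusted threshold. In CCR2-/- mice their medians were 0.26 and 0.45. Which segments a mouse uses differs between animals, and each segment is a near copy of others. Ribosome assembly factors of the Nop, Utp and Rrp families were above 0 in 21 of 22 (median 0.22), with 10 higher at an unadjusted p under 0.05 (5.45% of all genes). Nop56, a core protein of the snoRNA particles that modify ribosomal RNA, had a log2 fold change of 0.65 (limma adjusted p = 0.0605), from 7.16, 8.17 and 7.51 FPKM in the controls to between 9.96 and 14.7 FPKM (median 12.7) under NMBA. Ribosomal protein genes had a median of 0.22 in wild type and -0.14 in CCR2-/-, with 2 of 67 at an unadjusted p under 0.05.

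Genes of potassium channels and their subunits, which set the excitability of muscle and nerve, were below 0 in 32 of 49 (median -0.14). At an unadjusted p under 0.05, 16 were lower (7.69% of all genes) and 2 higher (5.45%). On the lower side 7 were non-overlapping (3.76% of all genes). Kcnj8, a subunit of the ATP-sensitive channel of vascular smooth muscle, was at 10.6, 14.7 and 9.94 FPKM in the controls and between 3.11 and 8.02 FPKM (median 5.79) under NMBA (log2 fold change -0.94, limma adjusted p = 0.161). Of 9 kept Hox genes 2 were above 0, with a median of -0.40 in wild type and -0.080 in CCR2-/- mice.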
